A study of Homo sapiens with 4 samples.

Results

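The 8 genes described here encode members of the minichromosome maintenance (MCM) family, *MCM2*, *MCM3*, *MCM4*, *MCM5*, *MCM6*, *MCM7*, *MCM8* and *MCM10*. They were taken by symbol from tables of 25192 genes, and all 8 were found and passed the filter on low counts, as 14099 genes did. A549 is a human lung adenocarcinoma cell line. RNA was sequenced from 4 libraries of these cells, 2 transduced with a control empty virus (EV), which expresses only GFP, and 2 transduced with the FCN3 virus, which expresses V5-tagged FCN3, a secreted lectin, from the same retroviral vector. RNA was taken 48 h after infection in both groups. The cells were not described as sorted for GFP, so untransduced cells may be present in every library. Nothing in the labels says whether the 2 libraries of a group came from separate cultures, so the tests measure only the spread between these libraries.

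MCM2 to MCM7 form a ring of 6 different subunits that is loaded around DNA at replication origins in G1 phase. In S phase the ring joins CDC45 and the GINS complex to become the CMG helicase, which unwinds DNA ahead of the polymerases. MCM10 binds the helicase and helps it to start, although it is not itself a ring-forming MCM ATPase. MCM8 carries the MCM ATPase fold and works with MCM9 in homologous recombination rather than in the replicative ring. Transcription of MCM genes is known to depend on E2F factors, and proliferating cells carry more MCM mRNA than quiescent cells.

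The libraries held between 16353554 and 35733735 expected counts, and in both groups replicate 1 was the deeper one. *FCN3* itself, the check of the labels, had 1 and 0 expected counts with EV but 722388 and 448352 with its own virus, and took 4.16% and 4.47% of all TPM in the latter (TPM is a transcript level per length that sums to the same total in every library). Of 7 genes fixed as A549 markers, 6 were between 218.88 and 6415.38 TPM in every library, while the epithelial adhesion gene *EPCAM* was only at 1.09 to 3.65 TPM. *CDKN2A*, which is deleted in A549, stood at 4 expected counts or fewer. Among 5 markers of other cells *PECAM1* was listed at 0 in every library, *PTPRC* and *DES* did not exceed 2 expected counts, *COL3A1* lay between 0.06 and 0.41 TPM, and *COL1A1* was the highest, at 2.7 to 8.12 TPM, higher in replicate 2 of both groups.

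All 8 MCM genes were lower with the FCN3 virus. Both FCN3 libraries lay below both EV libraries for 8 of 8, against 26.5% of all tested genes. In the 6 genes of the ring the median log2 fold change was -0.82, while the median over all tested genes was 0.02. A log2 fold change of -0.5 or lower was found for 7 of 8 members and for 8.70% of all tested genes. Counts of 2 libraries against 2 allow no exact permutation test of a single gene to reach a two-sided p below 0.333, so the genes were tested with a model fitted across the whole table. At an FDR of 0.01 this test, edgeR's quasi-likelihood test with Benjamini-Hochberg adjustment, called 1 of the 8, *MCM5*, as decreased, with 0.227% of all tested genes called decreased. At an FDR of 0.05 it called 7 of 8, with 2.77% of all tested genes called decreased, and *MCM8* was the gene that was not called. In bulk RNA, fewer cells that express a gene and less of its RNA in each cell cannot be told apart.

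*MCM2*, whose N-terminal tail binds histones, lies on chromosome 3 of GRCh37 (the build called hg19 in the study) from 127317253 to 127341279 on the plus strand. Normalized by the TMM method, its level in CPM (the gene's share of all counts in a library) was 212.9 (replicate 1) and 178.3 (replicate 2) for EV but 108.2 and 93.66 for the FCN3 virus. The lower EV library was still well above the higher FCN3 library. This log2 fold change of -0.95 (standard error 0.13, edgeR adjusted p = 0.018) was the largest of the family.

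*MCM5*, which sits beside MCM2 at the point where the ring opens, lies on chromosome 22 from 35796127 to 35821424 on the plus strand. It was at 175.6 and 170.1 CPM in the EV libraries and fell to 95.96 and 93.26 CPM with the FCN3 virus. The replicates of a group were close together. On the log2 scale it changed by -0.87 (standard error 0.08, edgeR adjusted p = 0.0080). *MCM5* thus passed the threshold of 0.01 with a smaller change than *MCM2*, whose replicates were wider apart. Without EV replicate 1 the adjusted p of *MCM5* from edgeR was 0.0103, without FCN3 replicate 1 it was 0.030 and without FCN3 replicate 2 it was 0.024, so this call needed each of these 3 libraries. Without EV replicate 2, the log2 fold changes of the 8 members ran from -1.08 (*MCM2*) to -0.57 (*MCM8*).

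*MCM4* and *MCM6* encode neighbouring ATPase subunits of the ring. *MCM4*, on the plus strand of chromosome 8 from 48872745 to 48890720, was at 429.8 and 365.4 CPM in EV cells, compared with 231.5 and 193.8 CPM in FCN3-virus-transduced cells. *MCM6*, on chromosome 2 (minus strand) from 136597196 to 136634013, was at 205.6 and 185.2 CPM against 118 and 112.2 CPM. In both genes the groups did not overlap, and replicate 1 was the higher library in each group. The log2 fold changes were -0.90 for *MCM4* (standard error 0.13, edgeR adjusted p = 0.022) and -0.76 for *MCM6* (standard error 0.09, edgeR adjusted p = 0.014).

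*MCM3* and *MCM7* encode another neighbouring pair of the ring. *MCM3*, on chromosome 6 (minus strand) from 52128812 to 52149679, was at 204.7 and 188.9 CPM in EV cells, compared with 117.2 and 115.7 CPM in FCN3-virus-transduced cells, a log2 fold change of -0.76 (standard error 0.08, edgeR adjusted p = 0.012). *MCM7*, on chromosome 7 (minus strand) from 99689856 to 99699563, was at 478 and 475 CPM against 309.4 and 308.4 CPM, a log2 fold change of -0.63 (standard error 0.07, edgeR adjusted p = 0.014). The change of *MCM7* was the smallest in the ring, and its replicates were the closest. The difference between its EV libraries, 0.01 on the log2 scale, was within the counting error of that difference (standard error 0.0195).

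*MCM10* lies on the plus strand of chromosome 10 from 13203558 to 13253110. It was at 105.1 and 81.66 CPM in the EV libraries and at 58.02 and 50.12 CPM with the FCN3 virus. The EV libraries were 0.36 apart on the log2 scale, the widest gap between replicates in the family and many times its counting error (standard error 0.0455). Its log2 fold change came to -0.79 (standard error 0.15, edgeR adjusted p = 0.044).

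*MCM8*, on the plus strand of chromosome 20 from 5931298 to 5979623, had the smallest change. It was at 89.81 and 75.86 CPM in the EV libraries and at 61.79 and 59.83 CPM with the FCN3 virus. The groups did not overlap, but the gap between them was about as wide as that between the EV libraries. Its log2 fold change came to -0.45 (standard error 0.11, edgeR adjusted p = 0.076). Its relative *MCM9*, which is outside the 8 genes, was at 16.19 and 13.74 CPM against 12.91 and 11.16 CPM (log2 fold change -0.32, standard error 0.16, edgeR adjusted p = 0.29).

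**Figure D1:**
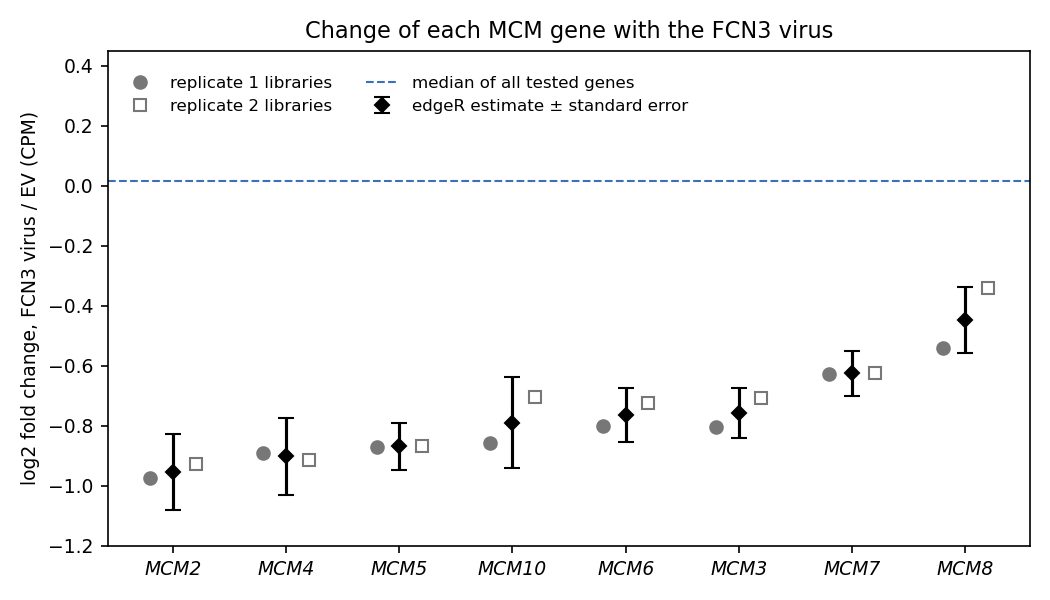
Log2 fold change of each MCM gene with the FCN3 virus, on the CPM scale, with the genes ordered by size of change on the x axis. Black diamonds are edgeR estimates with their standard errors, grey circles and squares are the differences between libraries of replicate 1 and of replicate 2, and the dashed line is the median of all tested genes (0.02). Estimates run from -0.95 for *MCM2* to -0.45 for *MCM8*, and the paired differences of *MCM8* and *MCM10* are the widest apart.

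The libraries were also compared by replicate number. Between the replicate 1 libraries the log2 differences of the 8 genes ran from -0.98 (*MCM2*) to -0.54 (*MCM8*), and between the replicate 2 libraries from -0.93 (*MCM2*) to -0.34 (*MCM8*). *MCM7* was at 64.7% of its EV level in replicate 1 and 64.9% in replicate 2, and *MCM5* at 54.6% and 54.8%. *MCM8* was at 68.8% and 78.9%. These pairs show that the difference by virus was nearly the same in both for *MCM5* and *MCM7* and less so for *MCM8*. With the replicate number as a block, edgeR's quasi-likelihood test called all 8 genes as decreased at an FDR of 0.01, with adjusted p between 2.8e-08 (*MCM8*) and 1.2e-21 (*MCM4*), and with 17.1% of all tested genes called decreased. In either direction this fit called 36.2% of all tested genes. Its p-values rest on spread borrowed across genes, as 4 libraries leave a single gene little of its own. The labels name no batch shared by libraries of the same number. DESeq2, the tool named in the study's methods, called 7 of 8 as decreased without the block, with 3.43% of its tested genes called decreased, and left out *MCM8* (DESeq2 adjusted p = 0.029).

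In CPM all 8 genes had a higher level in replicate 1 than in replicate 2 of each group, which was the case for 39.8% of all tested genes. The replicate differences in EV cells ran from 0.01 (*MCM7*) to 0.36 (*MCM10*) on the log2 scale, and those with the FCN3 virus from less than 0.01 (*MCM7*) to 0.26 (*MCM4*). In TPM, *MCM3* and *MCM7* with the FCN3 virus went the other way, at 65.06 and 65.27 TPM and at 196.48 and 198.88 TPM. Replicate 1 was also the deeper library. The part of depth in this was not tested.

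Levels of different genes were compared in TPM. *MCM7* was the highest in every library, at 330.17 and 324.99 TPM in EV cells and 196.48 and 198.88 TPM with the FCN3 virus. *MCM4* came next, at 170.06 and 143.25 TPM against 84.24 and 71.69 TPM, followed by *MCM5* (135.42 and 129.99 against 68.05 and 67.21 TPM). In EV cells *MCM3* (113.04 to 123.64 TPM) overlapped with *MCM2* (99.17 to 119.46 TPM) and *MCM2* with *MCM6* (92.96 to 104.18 TPM), so that the order of these neighbours was not beyond the spread of the libraries. With the FCN3 virus only *MCM6* (53.11 to 54.98 TPM) and *MCM2* (49.13 to 55.85 TPM) overlapped, and *MCM2* was below *MCM6* in replicate 2 but not in replicate 1. The genes outside the ring were the lowest. *MCM8* was at 39.05 to 46.66 TPM and *MCM10* at 33.87 to 44 TPM in EV cells, which overlap, against 29.04 to 29.51 and 19.61 to 22.33 TPM with the FCN3 virus, which do not.

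**Figure D2:**
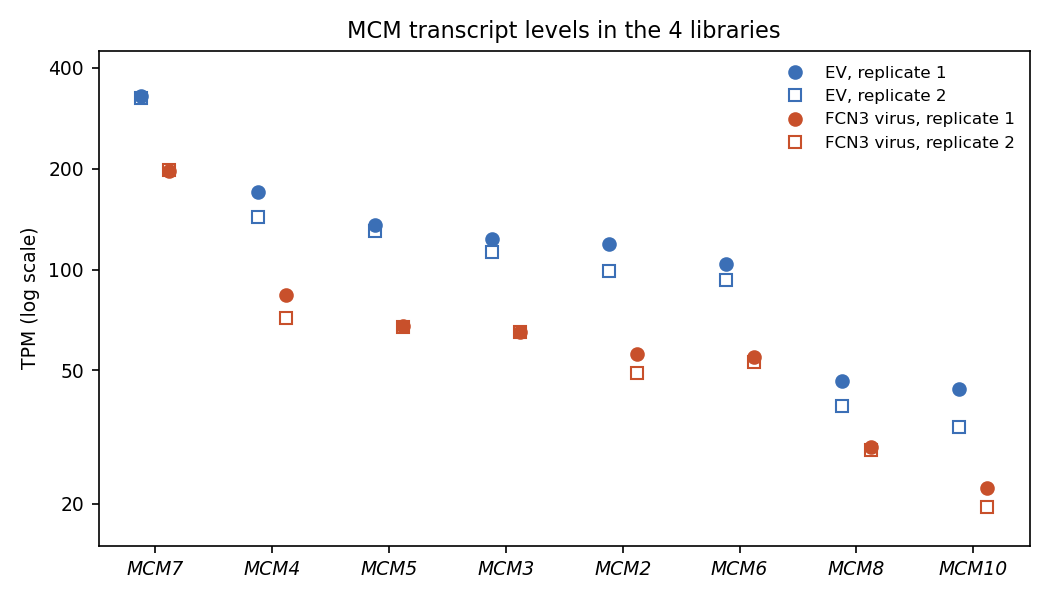
Level of each MCM gene in TPM on a log scale, with 1 point for each of the 4 libraries (EV in blue, FCN3 virus in orange, circles for replicate 1 and squares for replicate 2). For every gene both FCN3 points lie below both EV points, and *MCM7* is the highest gene in each library.

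Together the 6 genes of the ring summed to 982.9 and 903.4 TPM in EV cells (943 ± 56.2, SD, n = 2) and to 524.7 and 505.3 TPM with the FCN3 virus (515 ± 13.7, SD, n = 2). The sum was 53.4% of the EV level in replicate 1 and 55.9% in replicate 2, and in CPM 57.4% and 58.7%. TPM gave lower shares than CPM, and over all tested genes the median difference in log2(TPM + 1) was -0.07.

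Ring subunits are needed in equal numbers, but their mRNAs were not equal. The highest subunit was 3.17 and 3.5 times the lowest in the EV libraries and 3.57 and 4.05 times with the FCN3 virus. Without *MCM7* these ratios were 1.63 and 1.54 against 1.53 and 1.46. *MCM7* made up 33.6% and 36% of the ring's TPM in EV cells and 37.4% and 39.4% with the FCN3 virus. Set against the mean log2 TPM of the ring in the same library, *MCM7* was higher with the FCN3 virus by 0.20 in replicate 1 and 0.17 in replicate 2. *MCM2* was lower, with differences of -0.15 and -0.13. *MCM4* was lower within each replicate number, with -0.06 and -0.12, but its groups overlapped. For *MCM3*, *MCM5* and *MCM6* the difference was at most 0.09 in either direction, and of these genes only *MCM5* had overlapping groups. Outside the ring *MCM8* was higher by 0.29 and 0.45, while the differences of *MCM10* were -0.03 and 0.09. These are ratios within a library and were not tested.

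**Figure D3:**
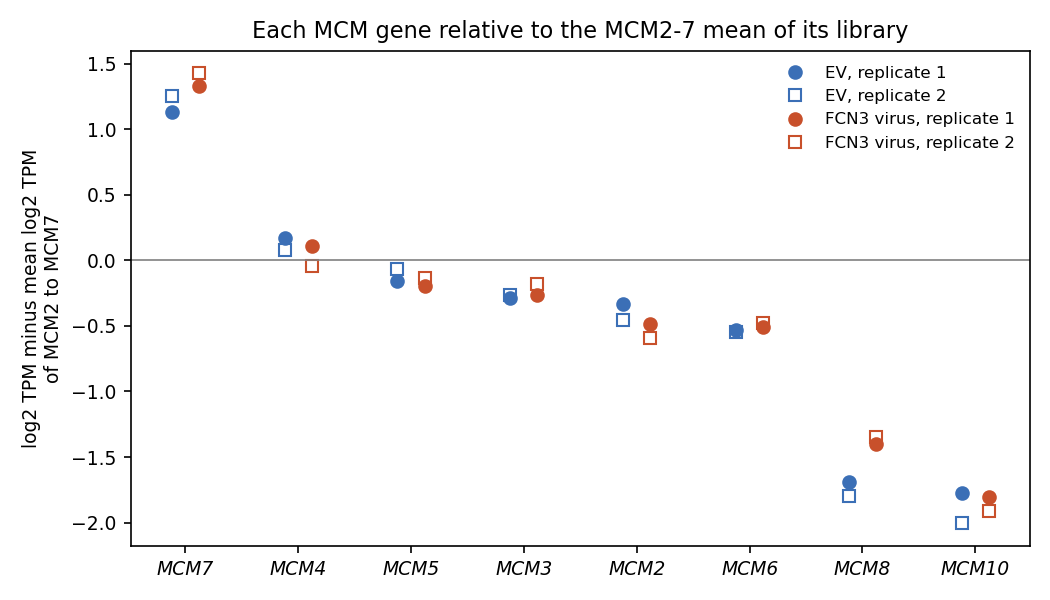
Log2 TPM of each MCM gene minus the mean log2 TPM of *MCM2* to *MCM7* in the same library, with 1 point for each of the 4 libraries. *MCM7* and *MCM8* sit higher with the FCN3 virus than in EV cells and *MCM2* sits lower, while for *MCM4*, *MCM5* and *MCM10* the groups overlap.

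The sequence around the transcription start was read for *MCM2*, *MCM3*, *MCM6*, *MCM7*, *MCM8* and *MCM10*. These are the members in the set of RefSeq start windows used here (GRCh38.p14, 250 bases before to 50 after the start). *MCM4* and *MCM5* are not shown. Because the members were all lower, the windows were searched on both strands for 4 forms of the E2F binding word (TTTGGCGC, TTTGCCGC, TTTCGCGC and TTTCCCGC), which can overlap each other, and for the CCAAT box, a site for NF-Y. The stretches below run 5′ to 3′ on the gene's strand from 225 bases before to 25 after the start, and capitals mark the E2F words. *MCM7* has 3 annotated starts, and the first is shown.
MCM2 (chr3:127598186-127598435, plus strand): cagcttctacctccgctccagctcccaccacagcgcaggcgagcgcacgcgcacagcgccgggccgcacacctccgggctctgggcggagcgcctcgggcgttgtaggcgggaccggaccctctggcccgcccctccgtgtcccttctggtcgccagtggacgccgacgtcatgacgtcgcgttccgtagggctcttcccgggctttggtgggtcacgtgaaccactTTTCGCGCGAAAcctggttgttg
MCM3 (chr6:52284718-52284967, minus strand): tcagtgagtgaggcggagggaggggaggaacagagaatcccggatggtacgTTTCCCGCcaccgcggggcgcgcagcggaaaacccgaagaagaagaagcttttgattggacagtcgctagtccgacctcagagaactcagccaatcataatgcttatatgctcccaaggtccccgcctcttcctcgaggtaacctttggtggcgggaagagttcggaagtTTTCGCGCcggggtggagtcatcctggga
MCM6 (chr2:135876419-135876668, minus strand): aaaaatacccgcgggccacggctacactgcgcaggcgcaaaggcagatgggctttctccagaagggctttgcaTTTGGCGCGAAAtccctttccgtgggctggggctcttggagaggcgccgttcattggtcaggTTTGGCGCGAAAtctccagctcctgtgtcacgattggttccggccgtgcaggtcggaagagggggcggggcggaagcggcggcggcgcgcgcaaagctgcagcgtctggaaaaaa
MCM7 (chr7:100101373-100101622, minus strand): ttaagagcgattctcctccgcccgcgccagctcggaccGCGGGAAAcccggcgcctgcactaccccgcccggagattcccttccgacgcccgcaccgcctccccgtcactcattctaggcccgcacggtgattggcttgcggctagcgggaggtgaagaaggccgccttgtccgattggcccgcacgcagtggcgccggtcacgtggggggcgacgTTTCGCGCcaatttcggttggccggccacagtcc
MCM10 (chr10:13161333-13161582, plus strand): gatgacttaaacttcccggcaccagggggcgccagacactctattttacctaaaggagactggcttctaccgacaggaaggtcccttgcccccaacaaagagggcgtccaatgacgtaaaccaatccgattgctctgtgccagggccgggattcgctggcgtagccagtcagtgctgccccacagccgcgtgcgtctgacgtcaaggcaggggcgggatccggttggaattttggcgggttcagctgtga
MCM8 (chr20:5950667-5950696, plus strand, only the 30 bases around its word): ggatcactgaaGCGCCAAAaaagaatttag

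An E2F word stood in the start windows of 5 of these 6 genes, in 3.31% of all 35116 start windows and in those of 6.51% of the tested genes that have one. *MCM6* held 4 words, in 2 overlapping pairs upstream of the start. *MCM2*, *MCM3* and *MCM7* held 2 words each, and in each of the 3 genes a copy of TTTCGCGC lay within 10 bases of the start. In *MCM8* a single word on the other strand lay 27 to 34 bases after the start. The window of *MCM10* and the other 2 starts of *MCM7* held none of the 4 words, which says only that these letters are absent from these windows. A CCAAT box stood in the windows of *MCM3*, *MCM6*, *MCM7*, *MCM8* and *MCM10* but not of *MCM2*, against 34.6% of all start windows and 43% of tested genes with one. Among 9937 tested genes with a start window, the 647 with an E2F word had a median log2 fold change of -0.06 and the others of 0.02. With the replicate block edgeR called 27.2% of the former and 17.3% of the latter as decreased. The 647 genes include the MCM genes with a word. For genes with and without a CCAAT box these shares were 19.5% and 16.7%, and the medians 0.004 and 0.015. A role of E2F or NF-Y in the changes was not tested.

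**Figure D4:**
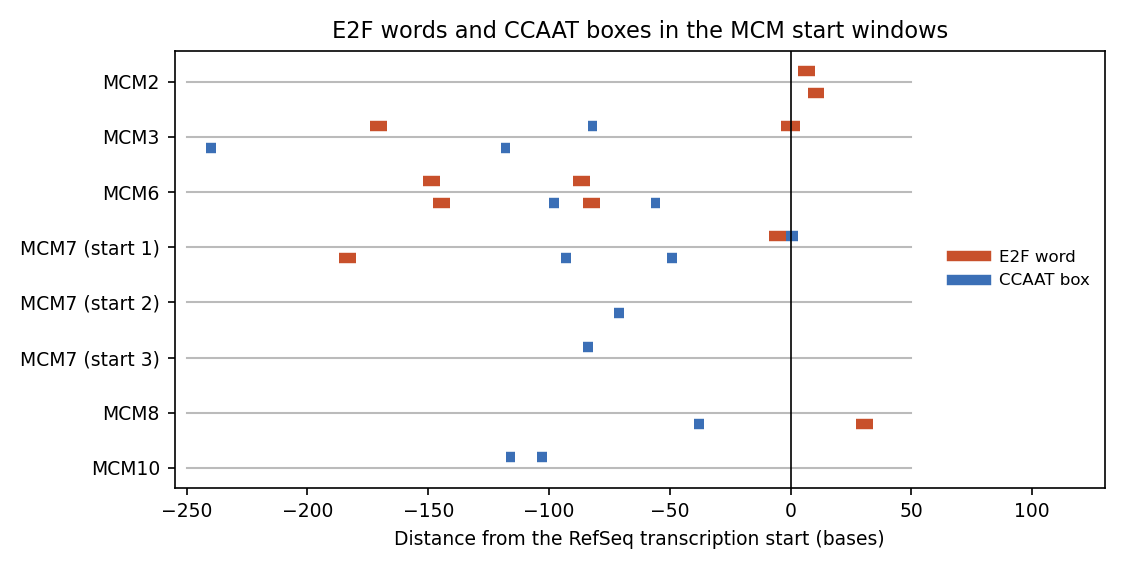
Positions of E2F words (orange) and CCAAT boxes (blue) in the RefSeq start windows of 6 MCM genes, by distance in bases from the transcription start. Marks above a line are on the strand of the gene and those under it on the other strand. *MCM2*, *MCM3* and *MCM7* each have an E2F word within 10 bases of the start, *MCM3* and *MCM7* also have one farther upstream, those of *MCM6* all lie upstream, and *MCM10* has none.

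In the GRCh37 annotation 4 of the 8 genes have another gene that starts within 1 kb of their own start on the other strand. *PRKDC*, which encodes the catalytic subunit of the DNA-dependent protein kinase, starts 7 bases from *MCM4*. It was at 696.7 and 443.8 CPM in EV cells and at 608.4 and 435.9 CPM after FCN3 transduction, so that the groups overlapped (log2 fold change -0.13, standard error 0.26, edgeR adjusted p = 0.81). *TRMT6*, a tRNA methyltransferase subunit, starts 94 bases from *MCM8* and was at 67.83 and 65.35 against 62.62 and 65.31 CPM (log2 fold change -0.06, edgeR adjusted p = 0.72). *TPRA1* starts 143 bases from *MCM2* and was at 42.07 and 43.31 against 37.85 and 33.43 CPM (log2 fold change -0.26, edgeR adjusted p = 0.22, or 0.0029 with the replicate block). *AP4M1*, an adaptor complex subunit, starts 391 bases from *MCM7* and overlaps it by 392 bases, and was at 15.61 and 15.05 against 13.06 and 13.98 CPM (log2 fold change -0.19, edgeR adjusted p = 0.43). Each neighbour thus had a smaller difference than the MCM gene beside it. Whether the changes of neighbours differ from those of the MCM genes was not tested.

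*MCM7* was the only member whose expected counts were not whole numbers, which RSEM gives where it divides reads between genes. The microRNA genes *MIR25*, *MIR93* and *MIR106B* lie inside *MCM7* on its strand and were listed at 0 in every library with an effective length of 0, so these libraries do not measure them. *MCM8* overlaps other annotated genes on both strands, among them *MCM8-AS1*, which the deposited tables do not list, so its counts are less certain. An lncRNA on the other strand, which the deposited tables do not list either, overlaps *MCM2* by 2331 bases, so the counts of *MCM2* are also less certain if strand was not used.

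The proteins that load, activate, contact or unload the helicase, or regulate its loading, were then examined in 7 lists with 53 genes. Of the 53 genes, 52 were tested. Of these, 47 had a log2 fold change below 0, against 48.1% of all tested genes, and in 42 both FCN3 libraries lay below both EV libraries, against 26.5%. The median log2 fold change was -0.45, against 0.02 over all tested genes and -0.78 over the 8 MCM genes. edgeR's quasi-likelihood test called 0 of the 52 at an FDR of 0.01 (background 0.965% in either direction), 34 had an unadjusted p under 0.05 (25.1% of all tested genes did), and at an FDR of 0.05 it called 17, all decreased (background 2.77%). With the replicate block edgeR called 38 as decreased and 3 as increased at an FDR of 0.01, with 17.1% and 19.1% of all tested genes called, and DESeq2 without the block called 16, all decreased (background 3.43%).

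The partners that join the ring to form the CMG helicase, *CDC45* and *GINS1* to *GINS4*, came closest to the MCM genes. Their median log2 fold change was -0.71, and all 5 were lower. *GINS2* was at 76.26 and 64.57 CPM in EV cells and 36.17 and 29.26 CPM after FCN3 transduction (log2 fold change -1.10, standard error 0.15, edgeR adjusted p = 0.018), and *CDC45* at 47.58 and 43.91 against 32.7 and 31.37 CPM (log2 fold change -0.52, edgeR adjusted p = 0.045). In each of the 5 genes both FCN3 libraries lay below both EV libraries, against 26.5% of all tested genes. With the block all 5 were called as decreased, against 17.1% of all tested genes.

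The genes that load the ring or regulate its loading differed less evenly, with a median of -0.22 over 9. *ORC1*, the largest subunit of the origin recognition complex, was at 55.43 and 51.19 against 31.66 and 28.56 CPM (log2 fold change -0.82, edgeR adjusted p = 0.018). *CDC6*, the loading ATPase, went the other way, at 152 and 132.4 against 192.9 and 169.8 CPM (log2 fold change 0.35, edgeR adjusted p = 0.13). With the block it was called as increased (edgeR adjusted p = 1.7e-07). Among 9 kinases and factors that activate the helicase the median was -0.48, from -0.71 for *DBF4B*, an activator of the kinase CDC7, to -0.23 for its relative *DBF4*. With the block 9 of 9 were called as decreased, against 17.1% of all tested genes. Without it edgeR called 0 of 9 at an FDR of 0.01 (background 0.227% decreased) and 2 at 0.05 (background 2.77%). The groups overlapped for *DBF4* (edgeR adjusted p = 0.38).

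Among 11 tested genes of the replisome, the median was -0.49, from -0.86 for *CLSPN*, a fork protein of the checkpoint, to -0.10 for *POLE4*, a small subunit of polymerase epsilon. Among 6 genes of histone handling at the helicase it was -0.39. Here the histone chaperones *ASF1B*, at 59.85 and 49.22 against 30.31 and 22.98 CPM (log2 fold change -1.03, with an edgeR adjusted p of 0.032), and *ASF1A*, at 18.82 and 19.06 against 25.41 and 22.27 CPM (log2 fold change 0.34, edgeR adjusted p = 0.17), had opposite signs. With the block both were called, *ASF1A* as increased.

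Genes for unloading of the helicase differed least between the groups, with a median of -0.12 over 8. *TRAIP*, a ubiquitin ligase, had a log2 fold change of -0.54 (edgeR adjusted p = 0.077). *VCP*, the segregase that extracts the helicase and also serves ER-associated degradation, was at 911.1 and 833.2 against 1241 and 1070 CPM. The log2 fold change of *VCP* was 0.41 (edgeR adjusted p = 0.094). With the block both were called, *TRAIP* as decreased (edgeR adjusted p = 3.2e-05) and *VCP* as increased (edgeR adjusted p = 6.4e-10). Of the remaining 4 genes, *C17orf53*, which binds MCM8 in recombination, was at -0.46 (edgeR adjusted p = 0.10) and *MCM3AP*, an mRNA export factor named for its binding to MCM3, at 0.03 (edgeR adjusted p = 0.87). *MCMBP*, a chaperone of MCM proteins, was at 200.6 and 177.5 against 153 and 137.7 CPM (log2 fold change -0.38, edgeR adjusted p = 0.093).

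**Figure D5:**
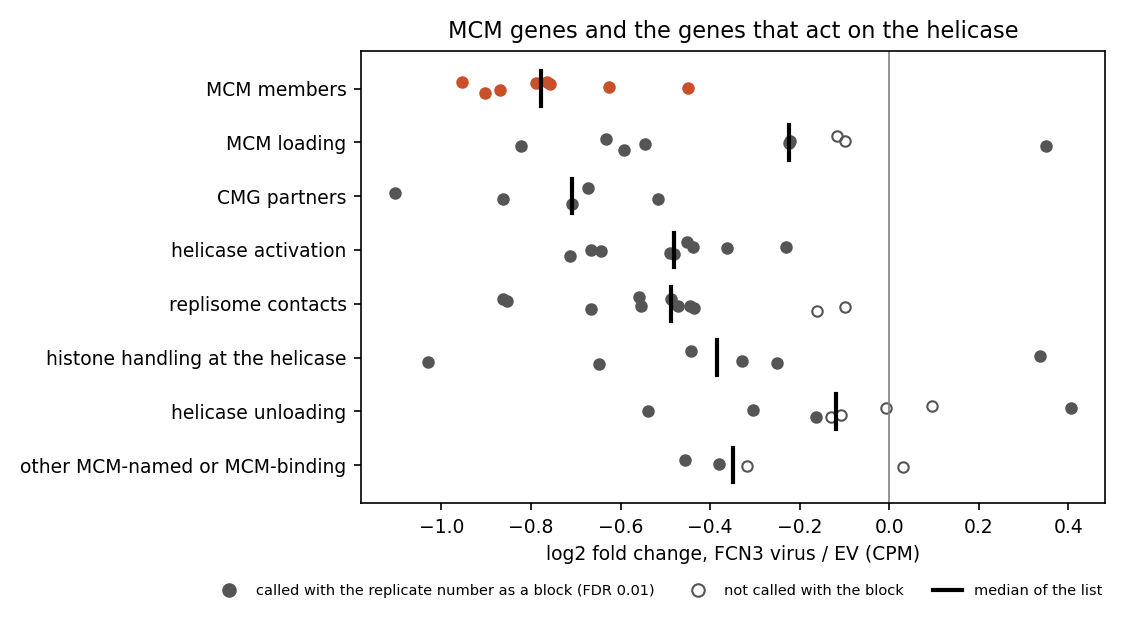
Log2 fold change with the FCN3 virus, on the CPM scale, for each MCM gene (orange) and each tested gene of the 7 lists of helicase partners (grey), 1 point per gene. Filled points were called at an FDR of 0.01 with the replicate number as a block, open points were not, and bars are list medians, from -0.78 for the MCM genes to -0.12 for helicase unloading.

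Apart from the members themselves, which were left out of the ranking, the genes whose profile over the 4 libraries was most like that of the ring were *DNA2*, *ORC1*, *EXO1*, *NUF2* and *KIFC1*, by the Euclidean distance between log2 CPM values centred on each gene's own mean (0.0341 to 0.0593 log2 units, 4 libraries). *DNA2* and *EXO1* encode nucleases of DNA replication and repair, *NUF2* a kinetochore protein and *KIFC1* a kinesin of the spindle. *DNA2* was at 42.92 and 39.25 CPM in EV cells and at 24.76 and 22.37 CPM after FCN3 transduction (log2 fold change -0.80, edgeR adjusted p = 0.021). The log2 fold changes of the 5 genes ran from -0.82 to -0.77. The 5 genes were picked for likeness to the ring in these same 4 libraries. Their changes therefore lie near those of the ring by choice, and are no separate evidence of likeness. *MCM6* was the member nearest to the ring's mean profile (distance 0.0541), and *MCM8* the farthest (0.38). That mean includes the ring genes themselves. Ranked by this distance among all tested genes, *MCM6* was at 4, *MCM3* at 18 and *MCM5* at 24. *MCM4* was at 82, *MCM2* at 112 and *MCM7* at 156, so many genes outside the family lay closer than these 3.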

How the data were processed

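The 4 libraries were stranded mRNA libraries, sequenced with paired ends. After trimming, the authors mapped reads to hg19 (STAR 2.6.1d) and quantified genes by RSEM. The deposited expected counts are estimated and not normalized. The deposited TPM and FPKM were normalized by the authors for length and depth, and FPKM was not used. The strand setting of the counting is not given in the sources used here, so genes that overlap others are uncertain. Groups and replicate numbers came from the sample labels.

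Expected counts were rounded and tested in R 4.3.3 with edgeR 4.0.16 (TMM, filterByExpr, quasi-likelihood fit without the older method, Benjamini-Hochberg over 14099 genes, threshold 0.01). Each standard error was taken as the size of the log2 fold change over the root of its F. A count of 3 gives a floor of 0.084 to 0.183 CPM. Counting errors of the members' expected counts were 0.758% to 3.17% per library, and cover counting only. Replicates differed by far more than sampling noise (chi-square per degree of freedom 17.7 and 24), so none was counted as a repeat. edgeR with and without the block, DESeq2 and voom were tested on simulated data, and limma on TPM was not. The simulated spread was a fixed setting and not estimated from these libraries, so it does not give error rates for them. Alternatives included DESeq2 1.42.0, limma 3.58.1, a replicate block and each library left out. Named genes were all 8 members, the called genes and the extremes of each partner list, neighbours of the members and the 5 genes nearest in profile. *MCM9* and *MCMBP* were named after their values were seen, as were the motifs searched. The members and lists were chosen with earlier results of these data known. Gene locations come from GENCODE on GRCh37 and start windows from RefSeq on GRCh38.p14.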

Additional observations from a re-analysis of the deposited data

How the results depend on the processing

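All 8 members kept their direction in the 15 other settings tried for each of them. *MCM5* was called in 12 of these settings, *MCM7* in 3 and *MCM8* in 2. The number of members called was 1 without the replicate block, 7 with DESeq2, 7 at an FDR of 0.05, 8 with the replicate block and 8 with DESeq2 and the block together, a setting chosen after seeing the data. Partner genes called, of 52, were 0, 16, 17, 41 and 30 in the same order, and all genes called were 136, 1047, 1014, 5103 and 2222. Those totals hold both directions, whereas every called member was decreased. Genes called decreased were 32 (0.227% of those tested), 457 (3.43%), 390 (2.77%), 2413 (17.1%) and 1113 (of 18636 with a p-value). Among partner genes, 3 were called increased with the edgeR block and 2 with the DESeq2 block. With a library left out, between 0 and 6 members, 0 and 1 partner genes and 92 and 267 of all genes were called. The 6 members were called without EV replicate 2, which also gave the 267 genes. The median log2 fold change of *MCM2* to *MCM7* was -0.91 with limma on log2(TPM + 1) and -0.92 with a pseudocount of 0.1, and -0.87 to -0.73 with a library left out. RLE factors, other filters, leaving *FCN3* out, unrounded counts and voom gave 1 member called each, and so did both TPM settings.

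The labels share replicate numbers between the groups but name no shared batch or day. Across 8309 genes with an average log2 CPM above 4, apart from *FCN3*, the differences between replicates 1 and 2 in the EV and FCN3 libraries had a Pearson's r of 0.807, a hint from the data that libraries with the same number deviate together. Genes are not independent replicates, and with 2 numbers the pairing cannot be settled.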
